A study of Mus musculus with 24 samples.

Results

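Liver expression in mice that overexpressed L2d13 was compared with that in wild-type (WT) mice within the samples whose names carry the digit 4, called set 4 here. The comparison takes 12 of the 24 libraries, 6 of L2d13 (replicates 7 to 12) and 6 of WT (replicates 7 to 12). All came from liver of the C57BL/6 strain, and the labels name no treatment, age, sex or hour of collection. The series calls the overexpressed form L2 delta13. In the literature this stands for Loxl2 (lysyl oxidase like 2) that lacks exon 13, but L2 is not explained in the labels. They give neither the promoter that drives the transgene nor the number of founder lines, and nothing in them says that libraries of a group came from separate animals. The p-values therefore measure the spread between libraries, which may be partly technical. The other 12 libraries carry the digit 2 and form set 2, with 6 of each genotype. In the tests across genes, the spread was estimated over the libraries of both sets. The meaning of the digits is not given. Running numbers in the sample names form blocks that do not overlap between the genotypes, so genotype and whatever these numbers follow cannot be told apart.

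The genes of the circadian clock are given first, because they moved in both directions in these livers. In the liver, as in most tissues, Arntl (BMAL1) pairs with Clock or Npas2 and switches on genes that carry E-boxes in their promoters, among them the Per and Cry genes, Nr1d1, Nr1d2, Dbp and Tef. The Per and Cry proteins then repress that pair, while the REV-ERB receptors (Nr1d1 and Nr1d2) repress Arntl, Npas2, Cry1 and Nfil3 through elements that ROR receptors use for activation. Dbp, Tef and Hlf activate and Nfil3 represses through D-boxes, which passes the rhythm on to metabolic genes. Transcripts of these genes rise and fall within each day, so their level in a sample depends on the hour at which it was taken, and the hour is not given in the labels.

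The E-box is shown because it lies in windows of called genes of both directions, and the REV-ERB and ROR element because its REV-ERB receptors were called. RefSeq promoter windows of GRCm38.p6, which run from 250 bases before to 50 bases after an annotated start, were found for 25 of the 31 clock genes listed. The E-box CACGTG, searched on both strands (it reads the same on each), was in 7.15% of all 32851 windows and in windows of 5 clock genes, which were Bhlhe41, Ciart, Cry1, Per1 and Tef. The D-box TTANGTAA, searched on both strands, was in 2.32% of windows and in those of Per3, Rorb and Timeless. The element shared by REV-ERB and ROR receptors, also searched on both strands, was in 0.384% of windows and in 1 clock gene, Arntl. Of the 36 windows of these clock genes, 6 held the E-box, 3 the D-box and 1 the REV-ERB and ROR element. Matches of different motifs overlapped in 2 of all windows. Tef, which was higher in L2d13, and Cry1 and Per1, which were lower, are shown here over the 250 bases before the start at chr15:81802423-81802672 (plus strand), chr10:85185055-85185304 (minus strand) and chr11:69098699-69098948 (plus strand), 5′ to 3′, with the E-box in capitals. The Arntl stretch of 30 bases at chr7:113207528-113207557 (plus strand) lies just after its start, and its capitals mark the REV-ERB and ROR element.
Tef: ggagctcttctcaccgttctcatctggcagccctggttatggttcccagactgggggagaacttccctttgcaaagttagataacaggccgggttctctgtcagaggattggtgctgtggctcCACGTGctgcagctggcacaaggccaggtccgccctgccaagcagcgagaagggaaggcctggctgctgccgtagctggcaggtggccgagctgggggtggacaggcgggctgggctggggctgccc
Cry1: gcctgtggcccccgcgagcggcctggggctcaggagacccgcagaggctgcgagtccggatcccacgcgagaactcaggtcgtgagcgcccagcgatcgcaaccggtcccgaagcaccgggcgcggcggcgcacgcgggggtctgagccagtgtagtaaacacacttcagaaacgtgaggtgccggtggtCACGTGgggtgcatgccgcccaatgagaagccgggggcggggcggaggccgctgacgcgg
Per1: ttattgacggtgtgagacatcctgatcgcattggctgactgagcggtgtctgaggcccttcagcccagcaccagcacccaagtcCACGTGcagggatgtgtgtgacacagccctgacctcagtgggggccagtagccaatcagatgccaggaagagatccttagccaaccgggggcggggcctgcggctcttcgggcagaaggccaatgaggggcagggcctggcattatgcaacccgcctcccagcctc
Arntl: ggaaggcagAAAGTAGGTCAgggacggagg
A match describes these letters only, and a window without one says nothing of the factor.

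Genes were tested where at least 6 of the 24 libraries had an FPKM of 1 or more, with limma on log2(FPKM + 1) and Benjamini-Hochberg adjustment over all of them. Set 4 had 1090 of 10532 tested genes higher in L2d13 (10.3%) and 313 lower (2.97%), at an adjusted p under 0.05, and such genes are those called below. Past a 2-fold difference in FPKM + 1 there were 58 higher and 100 lower genes, so most of the higher calls were small. The median difference over all tested genes was 0.078 on the log2(FPKM + 1) scale. FPKM, fragments per kilobase of transcript scaled to the mapped fragments of the library, fixes neither the sum of a library nor the level of its middle genes. Dividing each library by the median ratio of its genes to their mean over libraries (median-of-ratios scaling) shifted the median difference by -0.083 and gave 632 higher (6.0%) and 640 lower genes (6.08%). The higher genes thus made up 77.7% of the calls on the deposited FPKM, 49.7% with that scaling and 56.4% after quantile normalization, at 705 higher and 544 lower. Of the original calls, 626 higher and all 313 lower genes were shared with the median-of-ratios calls. The direction of single genes below was therefore checked under each scaling, while the balance of higher and lower genes depends on it. The shares of 10.3% higher and 2.97% lower are the background only of list counts on deposited FPKM over all 12 libraries of set 4. A count from another setting has a different background, for instance 6.0% higher and 6.08% lower genes after median-of-ratios scaling. If WT replicates 9 to 12 are left out, the background is 63 higher and 84 lower genes. For set 2 it is 13.0% higher and 2.13% lower.

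The libraries of WT replicates 9 to 12 stood apart from the other 8 of set 4. Their FPKM summed to between 662311 and 722980, against 565405 and 604003 in WT replicates 7 and 8 and 581265 to 631068 in L2d13. The value of 1 fragment in FPKM, relative to the common value, was 1.029 to 1.116 in them, 0.992 to 0.994 in WT replicates 7 and 8 and 0.993 to 1.038 in L2d13, where replicate 11 alone reached their range. Read totals are unknown, so no depth is given. The major urinary protein (Mup) genes took 23.82% to 33.58% of their FPKM sum, against 11.71% and 15.02% in WT replicates 7 and 8 and 10.08% to 23.18% in L2d13. Over all 12 libraries the Mup share averaged 17.5% ± 4.57 (SD) in the 6 L2d13 livers and 22.6% ± 8.0 (SD) in the 6 WT livers (two-sided exact permutation test, p = 0.208). Without WT replicates 9 to 12, which leaves 2 WT libraries, 63 genes were higher and 84 lower, and the median difference was -0.055. Values without these 4 libraries are given below as "without WT 9 to 12". With so few WT libraries the standard error (SE) grows, so a call can be lost though the difference does not shrink. Per1, for instance, was at -1.03 over all 12 libraries and called, and at -1.27 without WT 9 to 12 and not called.

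**Figure D1:**
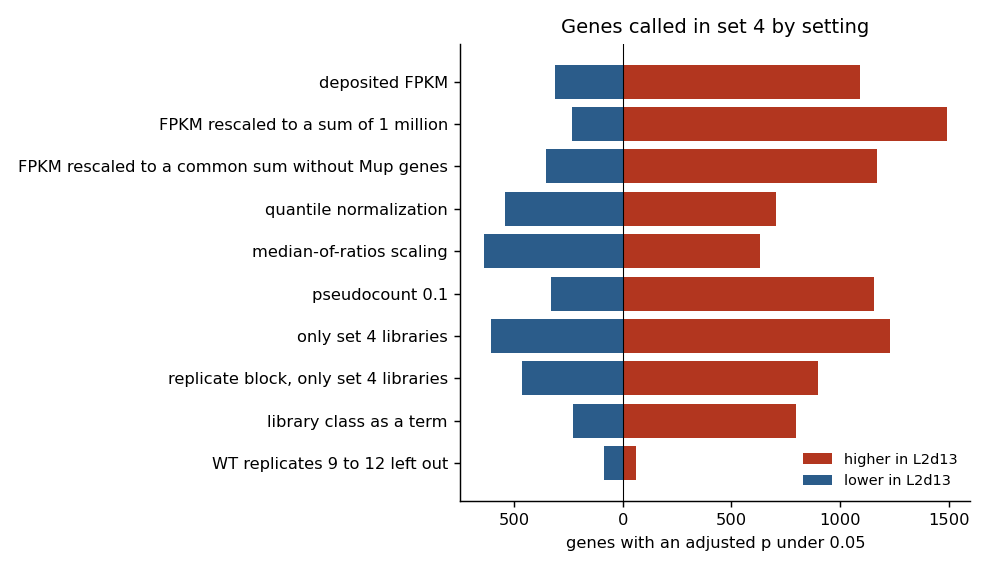
Number of genes called higher (right, red) and lower (left, blue) in L2d13 livers of set 4 under the deposited FPKM and 9 other settings; the axis counts genes with an adjusted p under 0.05 by limma. The deposited FPKM gives 1090 and 313, median-of-ratios scaling 632 and 640, and leaving out WT replicates 9 to 12 gives 63 and 84.

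The overexpressed gene followed the labels. Loxl2 was 0.83 to 1.7 FPKM in L2d13 and 0.36 to 0.77 in WT, a log2 difference of 0.58 (two-sided exact permutation test, p = 0.0022, the smallest that 924 arrangements allow). Gm21451, an annotated copy of Loxl2, was 106.42 to 266.18 FPKM in L2d13 and 0.03 to 0.24 in WT (log2 difference 7.33). The copies share reads, and their summed FPKM differed by 6.79 on the log2 scale (p = 0.0022 by the same exact test). The list of 10 hepatocyte markers summed to 54398 to 70681 FPKM in L2d13 and 69413 to 75555 in WT. Of the 10, 1 was called higher and 1 lower, against 10.3% and 2.97% of all tested genes. These sums also carry the FPKM scale of each library, which was higher in WT replicates 9 to 12. In bulk tissue, fewer cells of a type, less RNA per cell and changes of single markers cannot be told apart by such a sum.

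Of the 31 clock genes listed, all were measured, 26 reached the level needed for a test and 16 were called, 6 higher and 10 lower in L2d13. That is 61.5% of those tested, where 13.3% of all tested genes were called. Median-of-ratios scaling gave the same 6 and 10. The ranges of L2d13 and WT did not overlap for 9 of them, 4 higher and 5 lower, where 4.86% and 1.7% of all tested genes had no overlap in these directions. Of these calls, 4 higher and 3 lower remained without WT 9 to 12. The members and lists were chosen with earlier results in view, so these shares describe the list and test nothing.

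Among the activators, Arntl did not pass the test. It was 2.78, 6.51 and 8.05 FPKM in L2d13 (lowest, median, highest) and 5.76, 6.42 and 8.72 in WT, a log2 difference of -0.28 (adjusted p = 0.255). L2d13 replicates 7 and 8, at 2.78 and 3.38, lay below every WT library, and the other 4 lay within or near the WT range. Npas2 fell from 1.45, 1.855 and 2.9 FPKM in WT to 0.36, 0.735 and 1.85 in L2d13, by 0.63 ± 0.16 (SE) on the log2 scale (adjusted p = 0.0125). Its ranges overlapped in L2d13 replicates 10 and 11, which had 1.5 and 1.85 FPKM. Clock differed by 0.12 (adjusted p = 0.587), and Arntl2 stayed under 0.5 FPKM in all 12 libraries and was not tested. Without WT 9 to 12, Npas2 was at -0.53 and not called.

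The REV-ERB receptors rose, and Rora, which activates through the same elements, fell. Nr1d1 was 1.66, 2.04 and 5.0 FPKM in WT (lowest, median, highest) and 16.1, 28.21 and 42.77 in L2d13. Every L2d13 library lay above every WT library, with means of 29.0 ± 10.5 (SD, n = 6) and 2.73 ± 1.34 (SD, n = 6). Nr1d1 thus differed by 3.0 ± 0.36 (SE) in log2(FPKM + 1) (adjusted p = 1.28e-05). This is 7.99-fold in FPKM + 1, less than the ratio of the FPKM means. Nr1d2, the second REV-ERB, was 2.37, 3.195 and 3.91 FPKM in WT and 6.92, 9.1 and 12.35 in L2d13, again without overlap (log2 difference 1.31 ± 0.19, adjusted p = 0.000137). Rora fell by 0.41 (adjusted p = 0.0373), with ranges that overlapped. Nr1d1 (2.73) and Nr1d2 (1.19) were called also without WT 9 to 12, and Rora (-0.65) was not. Rorb was at or near 0.

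Of 6 tested repressors, 1 was called higher and 3 lower. Cry1 was 6.37, 7.955 and 9.66 FPKM in WT and 2.89, 3.53 and 5.71 in L2d13, a fall of 0.91 ± 0.14 on the log2 scale without overlap (adjusted p = 0.00029). Cry2, its paralogue, moved the other way, from 2.37, 3.625 and 4.0 FPKM in WT to 4.75, 6.175 and 7.08 in L2d13 (log2 difference 0.70, adjusted p = 0.0032), also without overlap. Per1 was 7.87 to 15.96 FPKM in WT and 2.45 to 7.74 in L2d13 and fell by 1.03 (adjusted p = 0.0374). Bhlhe40, a repressor that binds E-boxes, fell by 0.96 (adjusted p = 0.0238). Per2 had a difference of -0.58 (adjusted p = 0.149) and Ciart one of -0.12 (adjusted p = 0.829). Per3, at 0.16 to 0.77 FPKM in WT and 0.26 to 1.83 in L2d13, and Bhlhe41, under 1 FPKM in all libraries, were not tested. Without WT 9 to 12 the differences were -0.90 for Cry1, which stayed called, and 0.75 for Cry2, -1.27 for Per1 and -1.05 for Bhlhe40, which did not.

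Of the 4 D-box factors, 2 activators were called higher and the repressor lower, and the third activator was not called. Dbp, an activator, was 0.34, 0.83 and 2.5 FPKM in WT and 2.44, 7.725 and 39.61 in L2d13, a log2 difference of 2.49 ± 0.44 (adjusted p = 0.000875). L2d13 replicates 7 and 8, the libraries with the least Arntl, had the most Dbp, at 39.61 and 21.19, and L2d13 replicate 10, at 2.44, fell within the WT range. Tef, the second activator, was 8.84 to 17.52 FPKM in WT and 13.49 to 28.91 in L2d13 (log2 difference 0.80, adjusted p = 0.0287). Nfil3, the repressor at the same sites, was 24.79, 34.26 and 59.82 FPKM in WT and 9.16, 18.61 and 22.04 in L2d13, a fall of 1.17 ± 0.24 without overlap (adjusted p = 0.00264). Hlf, the third activator, differed by -0.02 (adjusted p = 0.948), and this sign depends on the scaling. Dbp stayed called without WT 9 to 12 (2.97), while Tef (1.0) and Nfil3 (-1.27) did not.

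Output genes with a daily rhythm moved in both directions. Por, the reductase that hands electrons to cytochromes P450, was 96.71, 139.7 and 164.1 FPKM in WT and 290.1, 300.1 and 319.7 in L2d13 (log2 difference 1.16 ± 0.13, adjusted p = 6.59e-06). Its libraries did not overlap. Noct, or nocturnin, a phosphatase of NADPH, fell by 2.27 ± 0.39 on the log2 scale, from 12, 20.07 and 31.52 FPKM to 1.88, 3.155 and 5.42 (adjusted p = 0.000814). Tsc22d3, a gene induced by glucocorticoids, fell by 1.86 (adjusted p = 0.00164), and Usp2, a deubiquitinase, by 1.02 (adjusted p = 0.0104). These falls were 1.86 and 0.81 without WT 9 to 12 and were not called there, while Por and Noct stayed called. Fbxl21, which marks Cry proteins for degradation, the kinases Csnk1d and Csnk1e, which act on Per proteins, and Timeless differed by -0.15 to 0.09 and were not called. Wee1 was not tested. The calls of Bhlhe40, Per1, Rora and Tef did not hold when single libraries were left out. Tef lost its call without L2d13 replicate 7 (0.72) or 8 (0.73) or WT replicate 11 (0.72), and Bhlhe40 without L2d13 replicate 9 (-0.87) or 10 (-0.86) or WT replicate 11 (-0.88). Per1 lost its call without any 1 of L2d13 replicates 8, 9, 10 and 12 or WT replicates 7, 9, 10 and 12 (-1.07 to -0.85), and Rora without any 1 of L2d13 replicates 7, 8, 9 and 12 or WT replicates 7, 8 and 9 (-0.42 to -0.32).

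**Figure D2:**
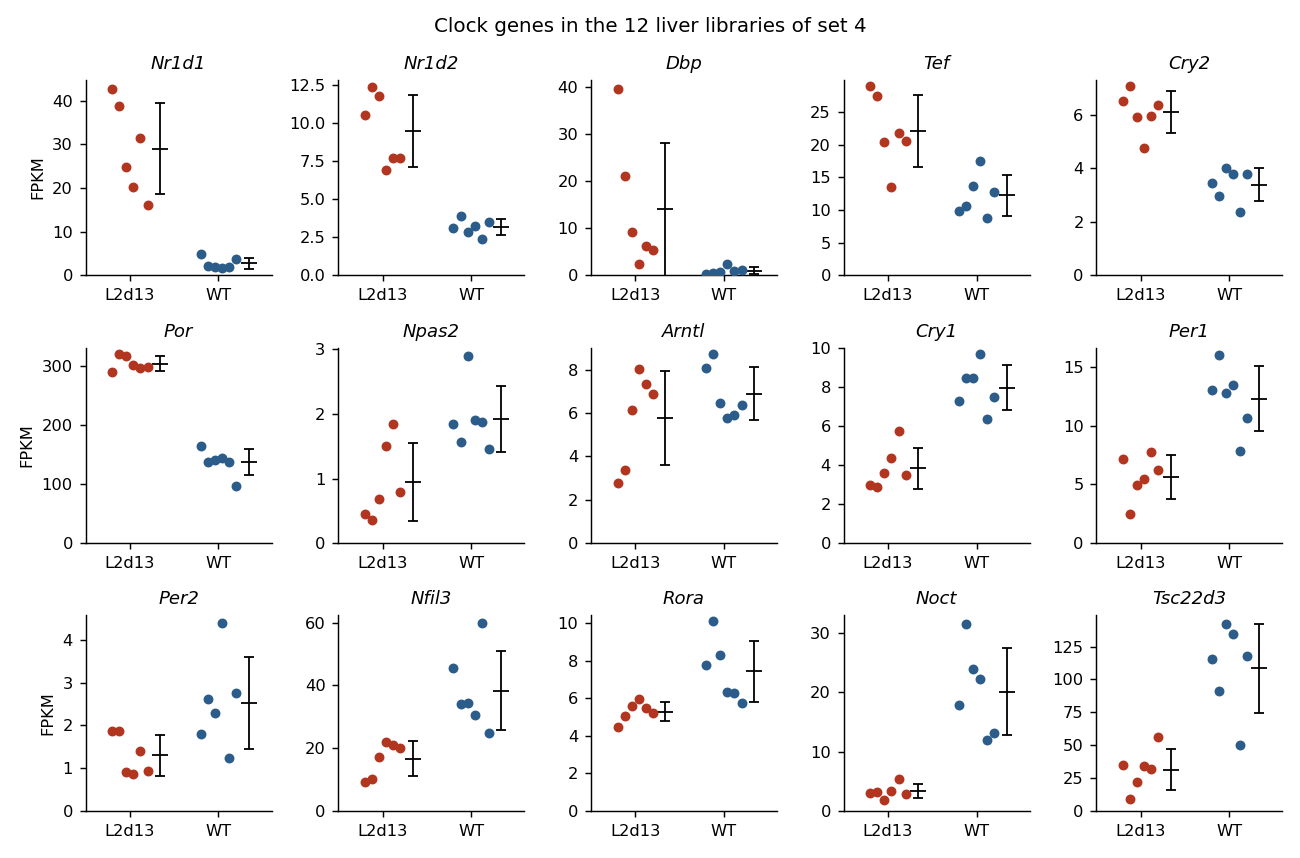
FPKM of 15 clock genes in the 6 L2d13 (red) and 6 WT (blue) libraries of set 4, in the order of replicates 7 to 12 within each group, with the mean and SD as black bars; each linear axis starts at 0 and cuts the lower SD bar of Dbp. Nr1d1, Nr1d2, Cry2 and Por lie above WT and Cry1, Per1, Nfil3 and Noct below it without overlap, while Arntl and Per2 overlap.

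The same contrast in set 2, which shares no library with set 4, differed from it by test for some of the clock genes. Both contrasts came from 1 fit of all 24 libraries and share its estimate of the spread. Calls in the sets are therefore not fully independent of each other. Of the 26 clock genes tested, 2 were higher and 2 lower in L2d13 of set 2, where 13.0% of all genes were called higher and 2.13% lower. These 4 had the direction they had in set 4, at 0.48 for Cry2, 0.45 for Por, -1.27 for Per1 and -2.35 for Noct. Nr1d1 averaged 5.71 FPKM in L2d13 and 8.20 in WT of set 2, a log2 difference of -0.11. The difference between the sets was called for 16 of 10532 genes (0.152%), 3 with a larger and 13 with a smaller value in set 4, and 5 of the 16 were clock genes. Among these were Nr1d1 (3.11 ± 0.51, adjusted p = 0.00541), Nr1d2 (1.56, adjusted p = 0.00982), Nfil3 (-1.83, adjusted p = 0.0212) and Cry1 (-0.99, adjusted p = 0.0368). Dbp, at 2.49 in set 4 and -0.38 in set 2, did not pass the test of the difference (adjusted p = 0.0603). Noct differed between the sets by 0.09 (adjusted p = 0.978).

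Parp16, Sdf2l1, Manf and Slc13a3, which are not clock genes, also differed between the sets. Parp16, an ADP-ribosyltransferase of the endoplasmic reticulum membrane, was 14.88, 20.96 and 24.36 FPKM in WT of set 4 and 7.21, 8.44 and 9.07 in L2d13, a fall of 1.16 without overlap (adjusted p = 0.000157). In set 2 it was higher in L2d13 by 0.86 (adjusted p = 0.00204), and the sets differed by -2.03 (adjusted p = 0.000142). Sdf2l1 and Manf, a chaperone cofactor and a secreted factor of the same compartment, differed by 0.02 and 0.04 in set 4, with adjusted p of 0.976 and 0.93. In set 2 they differed by 1.83 and 1.70. Slc13a3, a transporter of dicarboxylates, differed by 0.19 in set 4 and -0.77 in set 2. Over all genes, 539 higher calls were shared, 49.4% of those of set 4 and 39.5% of those of set 2, and 112 lower calls, 35.8% and 50%. No gene was higher in set 4 and lower in set 2 (0), and 3 were lower in set 4 and higher in set 2.

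**Figure D3:**
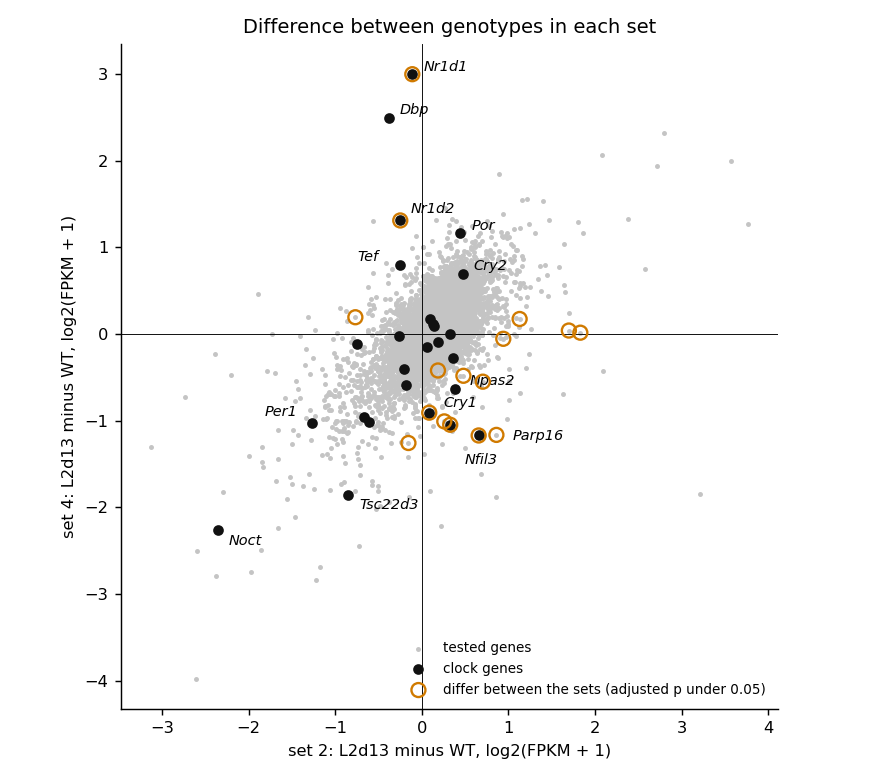
Log2(FPKM + 1) difference of L2d13 minus WT in set 4 (vertical) against that in set 2 (horizontal) for the tested genes, with clock genes in black and the 16 genes that differ between the sets circled; Gm21451 lies outside the plot and is left out. Nr1d1, Dbp, Nr1d2 and Tef lie high near 0 of set 2, and Cry1 and Nfil3 lie low.

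The 12 largest rises by the naming rule were Nr1d1, Dbp, Cgref1, Cyp17a1, Apoa4, Cidec, Oasl1, Dact2, Sphk2, Ehhadh, Tbx3 and Lad1. Of these, 10 had ranges that did not overlap and 9 were also called higher in set 2, against 4.86% and 13.0% of all tested genes. The genes were picked by their rise in set 4, so the count of ranges describes that choice and tests nothing. Cgref1, an EF-hand protein, was 0.36, 0.62 and 1.77 FPKM in WT and 4.75, 7.53 and 13.14 in L2d13 (log2 difference 2.32 ± 0.24, adjusted p = 2.21e-06). Cyp17a1, the 17-alpha-hydroxylase of steroid synthesis, was 2.96, 5.595 and 8.59 FPKM in WT and 21.88, 24.62 and 34.97 in L2d13 (2.07, adjusted p = 0.000915). Apoa4, an apolipoprotein of triglyceride-rich particles, was 70.63, 169.4 and 245.1 FPKM in WT and 276.5, 649.9 and 1228 in L2d13 (2.0, adjusted p = 0.0018). All of these ranges were apart, though in L2d13 Apoa4 and Cidec varied widely. Cidec, which enlarges lipid droplets, was 3.22 to 9.64 FPKM in WT and 14.71 to 78.5 in L2d13 (1.94, adjusted p = 0.00113), and it was not called without WT 9 to 12 (1.63, adjusted p = 0.133). Sphk2, a sphingosine kinase, was 9.58 to 18.9 FPKM in WT and 40.53 to 59.87 in L2d13 (1.54, adjusted p = 7.62e-05). Tbx3, a transcription factor of hepatocytes near the central vein, was 3.23 to 9.31 FPKM in WT and 10.43 to 22.06 in L2d13 (1.46, adjusted p = 0.00032). Oasl1, an interferon-induced gene, rose by 1.85, Dact2, a regulator of Wnt signalling, by 1.56, and Lad1, an anchoring filament protein, by 1.39. Ehhadh, a peroxisomal enzyme of fatty acid oxidation, differed by 1.54 (adjusted p = 0.0269), but by 0.07 without WT 9 to 12. Its call was also lost without any 1 of L2d13 replicates 8 and 9 or WT replicates 9, 10, 11 and 12 (1.32 to 1.49).

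The 12 largest falls by the same rule included Bglap3, Tcim, Tsku, Bcl6, Noct, Hspa1b, Phf11c, Ddit4, Herpud1, Plin4 and Tsc22d3. Of the 12, 8 had ranges that did not overlap and 6 were also called lower in set 2, against 1.7% and 2.13% of all tested genes. Here too the count of ranges describes the choice of the genes and tests nothing. Bglap3, a relative of osteocalcin, was 2.99, 23.3 and 60.16 FPKM in WT and 0, 0.305 and 1.1 in L2d13 (log2 difference -3.98 ± 0.68, adjusted p = 0.000766). Tsku, a secreted protein of the liver, was 30.27, 38.77 and 117 FPKM in WT and 4.55, 6.995 and 11.44 in L2d13 (-2.50, adjusted p = 4.6e-05). The WT libraries of both genes lay above the highest L2d13 library. Bcl6, a transcriptional repressor of lipid and growth hormone responsive genes, was 10.85 to 24.7 FPKM in WT and 1.56 to 3.64 in L2d13 (-2.45, adjusted p = 0.000388). Herpud1, which serves the degradation of misfolded proteins, was 206.6, 303.7 and 490.2 FPKM in WT and 75.25, 83.25 and 89.37 in L2d13 (-1.94, adjusted p = 4.6e-05). Its L2d13 libraries spanned a narrow range. Tcim, a small regulator of transcription, fell by 2.69, Hspa1b, an inducible heat shock protein, by 2.21, and Plin4, a perilipin of lipid droplets, by 1.90. Ddit4, an inhibitor of mTORC1, had a difference of -1.98 and Phf11c, a PHD finger gene, of -2.01 (adjusted p = 0.0354). These 2 were at -0.85 and -0.35 without WT 9 to 12 and were not called. Phf11c also lost its call without any 1 of L2d13 replicates 8, 9, 10 and 12 or WT replicates 9, 10 and 11 (-2.0 to -1.61). All 24 genes kept their sign and call under median-of-ratios scaling and quantile normalization, and 17 stayed called without WT 9 to 12. The 7 that did not were Cidec, Ehhadh, Phf11c, Ddit4, Hspa1b (-3.10), Plin4 (-1.95) and Tsc22d3 (-1.86).

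**Figure D4:**
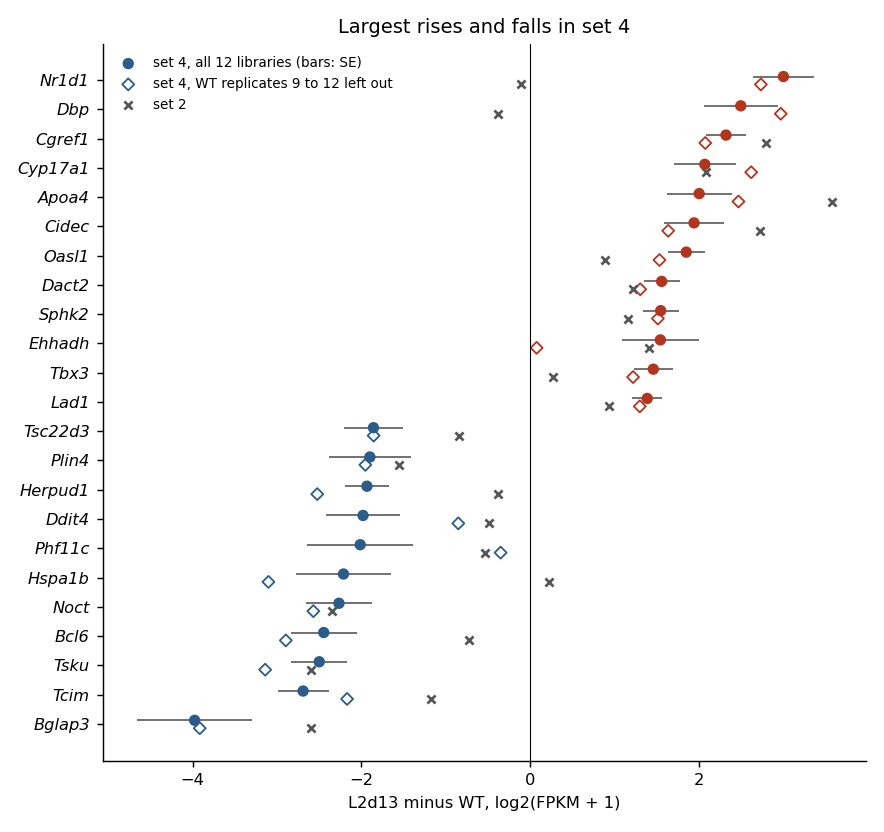
Log2(FPKM + 1) difference of L2d13 minus WT for the 12 largest rises (red) and 11 of the largest falls (blue) of set 4, as filled points with SE bars, beside the value without WT replicates 9 to 12 (diamonds) and that of set 2 (crosses). Nr1d1 and Dbp are near 0 in set 2, and Ehhadh and Phf11c move close to 0 without the 4 WT libraries.

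Genes of fatty acid oxidation were higher where they were called, and the sizes depended on WT replicates 9 to 12. Of 24 genes of mitochondrial fatty acid oxidation, 8 were called higher and none lower (0), with a median difference of 0.314, and median-of-ratios scaling left 3 higher. Cpt1a, which admits fatty acids to mitochondria, was 78.46, 79.61 and 149.3 FPKM in WT and 148.7, 199.3 and 231.8 in L2d13 (log2 difference 1.03, adjusted p = 0.00112). The list's median was 0.075 without WT 9 to 12, with none called (0) and Cpt1a at 0.53. Of 20 genes of peroxisomal and microsomal oxidation, 6 were higher and 0 lower, against 4 higher and 1 lower with median-of-ratios scaling. The median of these 20 moved from 0.355 to 0.043 without WT 9 to 12, where 0 were called. Cyp4a10, a fatty acid hydroxylase, was 533.5, 827.9 and 1077 FPKM in WT and 1454, 1721 and 2558 in L2d13 (1.17, adjusted p = 0.000799). Its groups did not overlap, and it was not called without WT 9 to 12 (0.92, adjusted p = 0.126). Pnpla2, the lipase that opens triglyceride stores, was 41.95, 44.75 and 47.76 FPKM in WT and 76.24, 95.95 and 110.1 in L2d13 (1.06 ± 0.11, adjusted p = 2.21e-06). It stayed called without WT 9 to 12 (1.07). Its list of 17 lipid droplet genes and lipases had 4 higher and 2 lower, and 1 and 0 without WT 9 to 12. Hadhb (0.93) and Acadm (0.50), enzymes of mitochondrial oxidation, lost their calls when single libraries were left out, Hadhb without L2d13 replicate 8 (0.85) or WT replicate 9 (0.78) or 11 (0.79), Acadm without L2d13 replicate 8 (0.44) or 9 (0.49) or WT replicate 9 (0.49) or 11 (0.42), and Acadm also with median-of-ratios scaling (0.40). Both were not called without WT 9 to 12, at 0.15 and 0.21.

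Genes of cholesterol and fatty acid synthesis were lower where they were called. Of 25 genes of cholesterol synthesis and its control, 10 were called lower and 0 higher, with a median difference of -0.568. Hmgcs1, the enzyme that makes HMG-CoA, was 31.96, 71.06 and 137 FPKM in WT and 24.23, 26.35 and 31.91 in L2d13 (log2 difference -1.25, adjusted p = 0.00472), so the ranges just failed to meet. Fdps and Nsdhl, enzymes of the same pathway, fell by 1.05 and 0.97. Without WT 9 to 12 the median was -0.052 and 0 genes were called, with Hmgcs1 at -0.29, Fdps at -0.25 and Nsdhl at -0.09. Scd1, the desaturase of fatty acid synthesis, was 120, 323.9 and 1023 FPKM in WT and 61.44, 96.39 and 207.1 in L2d13 (-1.63, adjusted p = 0.00528), and it stayed called without WT 9 to 12 (-1.76). It was 1 of 2 lower genes among 16 of fatty acid synthesis. The other, Thrsp, a regulator of lipogenesis, was 8.38 to 99.56 FPKM in WT and 2.9 to 21.08 in L2d13 (-1.65, adjusted p = 0.0359). Its difference was 0.16 without WT 9 to 12, and its call was lost without any 1 of L2d13 replicates 8, 9, 10 and 12 or WT replicates 9, 10, 11 and 12 (-1.69 to -1.34).

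Of 24 genes of glycolysis and glycogen, 6 were lower and 2 higher. Median-of-ratios scaling gave 7 and 1, and the omission of WT 9 to 12 gave 2 and 0. Ppp1r3b, which targets a phosphatase to glycogen, was 40.42, 66.91 and 77.95 FPKM in WT and 13.67, 18.93 and 23.56 in L2d13 (log2 difference -1.73, adjusted p = 2.67e-05). Khk, ketohexokinase of fructose breakdown, fell by 0.65, and Pfkfb3, an activator of glycolysis, by 1.12. Of these, Ppp1r3b stayed called without WT 9 to 12 (-1.94), Khk (-0.40) and Pfkfb3 (-1.30) did not. Among 23 genes of gluconeogenesis and fasting, 3 were higher and 1 lower, shares close to the 10.3% and 2.97% of all tested genes. Got1 and Gpt2, which move amino groups from amino acids to 2-oxoglutarate and back, rose by 1.17 and 0.77, and Trib3, a pseudokinase induced by stress, by 1.12. Foxo1, a transcription factor of the fasted liver, was 5.72 to 13.0 FPKM in WT and 4.14 to 5.99 in L2d13 and fell by 0.82 (adjusted p = 0.0047). Foxo1 stayed called without WT 9 to 12 (-0.97), and Got1 (0.86), Gpt2 (0.68) and Trib3 (1.01) did not.

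Amino acid breakdown and the urea cycle had 10 of 43 genes higher and 0 lower (median 0.307), and 3 higher with median-of-ratios scaling. Oat, ornithine aminotransferase, was 189.9, 279.4 and 421.6 FPKM in WT and 500.6, 660.1 and 942.2 in L2d13 (log2 difference 1.24, adjusted p = 0.000433). Mat1a, which makes S-adenosylmethionine, was 898.8, 1012 and 1239 FPKM in WT and 1882, 2218 and 3047 in L2d13 (1.13, adjusted p = 0.000985). Neither overlapped between the groups. Aass, an enzyme of lysine breakdown, rose by 1.19, and Asl, of the urea cycle, by 0.75, the latter not called with median-of-ratios scaling (0.64). The median of the list was 0.28 without WT 9 to 12, where 1 gene, Asl, was called and Oat (0.90), Mat1a (0.90) and Aass (1.11) were not. Among 23 pericentral genes, which are expressed around the central vein, 5 were higher and 2 lower, against 4 and 3 with median-of-ratios scaling. Axin2, a Wnt target there, was 0.97 to 1.83 FPKM in WT and 2.01 to 4.0 in L2d13 (0.79, adjusted p = 0.00476). Cyp1a2, also pericentral and an oxidase of caffeine, fell by 0.88 without overlap (adjusted p = 0.00342). Axin2 (0.81) and Cyp1a2 (-0.75) were not called without WT 9 to 12.

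Of 37 conjugating enzymes, which serve detoxification, 9 were lower and 1 higher, while median-of-ratios scaling gave 9 and 0 and the omission of WT 9 to 12 gave 3 and 0. Gsta3, a glutathione transferase, was 544.6, 653.1 and 743.1 FPKM in WT and 306.2, 351 and 426.2 in L2d13 (log2 difference -0.88, adjusted p = 0.000964). Its groups did not overlap, and it stayed called without WT 9 to 12 (-0.99). Gstm3, Mgst3 and Gsta4, of the glutathione transferase families, fell by 1.47, 1.43 and 0.76, and were not called without WT 9 to 12 (-1.04, -0.99 and -0.83). Members of such families can share reads, so their separate values are uncertain. Of 21 genes of the antioxidant response, 4 were lower and 1 higher, while median-of-ratios scaling gave 7 and 1 and the omission of WT 9 to 12 gave 1 and 0. Gclc, which limits glutathione synthesis, was 55.81, 76.86 and 154.9 FPKM in WT and 31.31, 33.41 and 41.0 in L2d13 (-1.20, adjusted p = 0.00126), and stayed called without WT 9 to 12 (-1.62). Srxn1, a reductase of peroxiredoxins, rose by 0.75, but differed by 0.33 without WT 9 to 12 (adjusted p = 0.578). Ahr, the receptor that induces Cyp1a2, was 6.5, 8.325 and 9.92 FPKM in WT and 3.62, 4.605 and 6.04 in L2d13 (-0.71, adjusted p = 0.00101), without overlap.

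Of 31 subunits of the proteasome, which degrades ubiquitin-tagged proteins, 18 were called higher and 0 lower (median 0.394), and 14 with median-of-ratios scaling. Psmc3, an ATPase subunit, was 53.42, 55.84 and 63.78 FPKM in WT and 69.02, 83.62 and 86.93 in L2d13 (log2 difference 0.50 ± 0.08, adjusted p = 0.000403). Psmd6, Psmc2 and Psmc4, also of the regulatory particle, rose by 0.62, 0.53 and 0.53, all without overlap. The median was 0.167 without WT 9 to 12, and 0 were called. In set 2, 11 were higher, where 13.0% of all tested genes were. Of 32 chaperones and folding genes of the endoplasmic reticulum, 4 were higher and 1 lower in set 4, close to the shares over all genes. The same list had 18 higher and 0 lower in set 2, against 13.0% and 2.13% of all tested genes there. Median-of-ratios scaling gave 2 and 4 in set 4, and quantile normalization 3 and 2. The difference between the sets was itself called for 2 of the 32, Sdf2l1 and Manf. Calr, the chaperone calreticulin, was 243.9 to 380 FPKM in WT and 407.5 to 536 in L2d13 (0.66, adjusted p = 0.000875), and Hsp90b1 rose by 0.80. Ddit3 (CHOP), a transcription factor of the stress response, fell by 1.27 (adjusted p = 0.0186), a call lost without WT replicate 9 (-1.18). The median of the chaperones was -0.17 without WT 9 to 12, where Calr (0.52), Hsp90b1 (0.49) and Ddit3 (-1.15) were not called.

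Interferon response genes had 18 of 35 tested members higher and 0 lower (median 0.45), and 14 with median-of-ratios scaling. Ifih1, a sensor of double-stranded RNA, was 2.43, 2.815 and 3.18 FPKM in WT and 4.45, 5.15 and 6.29 in L2d13 (log2 difference 0.71, adjusted p = 0.000433), without overlap. Ifit3 and Ifit1, which interferon induces, rose by 1.08 and 1.18, with ranges that overlapped. The median of the list was 0.458 without WT 9 to 12, with 2 genes called, among them Ifit3 but neither Ifih1 (0.66) nor Ifit1 (1.08). Markers of Kupffer cells, the macrophages of the liver, differed in the same direction, with all 14 positive (median 0.651) but 1 called, Cd163 (1.04, adjusted p = 0.00867). Their FPKM summed to 88.12, 167.7 and 303.3 in L2d13 and 55.2, 87.28 and 199.46 in WT (lowest, median, highest), with 0 of the 14 at 0 throughout. Without WT 9 to 12 the Kupffer median was -0.062 and Cd163 was not called (0.49), against a median of 0.458 for the interferon genes. The part of these cells in the interferon genes was not tested.

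Immediate early genes, which respond within minutes to hormones and growth factors, were lower in L2d13 where they were called. Of 16 tested, 6 were called lower and 0 higher, with a median of -0.657, and 7 lower with median-of-ratios scaling. Zfp36, which speeds the decay of messenger RNA, was 78.96, 121.8 and 298 FPKM in WT and 39.94, 50.31 and 61.84 in L2d13 (log2 difference -1.44, adjusted p = 0.00241), without overlap. Dusp1, a phosphatase of MAP kinases, fell by 1.49 and stayed called without WT 9 to 12 (-1.95). Egr1, a transcription factor, was 4.33, 8.52 and 47.96 FPKM in WT and 2.17, 3.24 and 5.0 in L2d13 (-1.62, adjusted p = 0.00881), so much of its difference lay in the upper WT libraries. Fos, at 0.49 to 5.14 FPKM in WT and 0.37 to 0.64 in L2d13, had a difference of -0.92 that was not called without WT replicate 11 (-0.82). The median of the list was -0.692 without WT 9 to 12, where 1 was called, and Zfp36 (-1.02), Egr1 (-0.87) and Fos (-0.79) were not.

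Of 21 bile acid genes, which make and carry these acids, 2 were higher and 3 lower, against 1 and 4 with median-of-ratios scaling. Of all tested genes, 10.3% were higher and 2.97% lower, and 6.0% and 6.08% with that scaling. The share of higher bile acid genes was close to that over all genes in both. Cyp8b1, the 12-alpha-hydroxylase that sets the share of cholic acid, was 340.4, 383.6 and 446.7 FPKM in WT and 535.4, 588.3 and 737.2 in L2d13 (log2 difference 0.67, adjusted p = 0.00306), without overlap. Nr0b2 (SHP), a repressor of bile acid synthesis, was 19.31 to 65.36 FPKM in WT and 5.59 to 19.68 in L2d13 (-1.31, adjusted p = 0.0179), a call lost without L2d13 replicate 12 (-1.07) or WT replicate 9 (-1.16). Of 23 hepatokines, the hormones and carriers that the liver secretes, 5 were lower and 1 higher, against 7 and 0 with median-of-ratios scaling. Ttr, the thyroxine carrier transthyretin, was 4349, 4837 and 5935 FPKM in WT and 2188, 2749 and 4051 in L2d13 (-0.76, adjusted p = 0.00449). Serpina6, the corticosteroid carrier, fell by 0.87 (adjusted p = 0.00651), and neither gene overlapped between the groups. Gdf15, a hormone that curbs appetite, fell by 1.69, a call lost without WT replicate 9 (-1.55). Of 14 apolipoproteins, 3 were higher, among them Apoa5, which aids the clearance of triglycerides, at 791.9 to 1019 FPKM in WT and 1062 to 1307 in L2d13 (0.44, adjusted p = 0.0139). Cyp8b1 (0.53), Nr0b2 (-1.05), Ttr (-0.62), Serpina6 (-0.96), Gdf15 (-2.19) and Apoa5 (0.28) were not called without WT 9 to 12.

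Of 18 genes that respond to temperature and heat shock, 2 were higher and 3 lower, where 10.3% and 2.97% of all tested genes were. The share of higher genes was thus close to that over all genes. Rbm3 and Cirbp, RNA-binding proteins that mild cold induces and that follow the daily cycle of body temperature, were the higher ones. Rbm3 was 19.96, 23.48 and 30.6 FPKM in WT and 31.45, 38.87 and 47.05 in L2d13 (log2 difference 0.68, adjusted p = 0.00438), without overlap. Cirbp was 5.4, 7.36 and 9.99 FPKM in WT and 9.62, 15.1 and 20.4 in L2d13 (0.90, adjusted p = 0.0134). The lower ones were heat shock genes, Hspa1b, given above, its near-identical neighbour Hspa1a and the cochaperone Dnajb1. Because Hspa1a and Hspa1b share reads, their separate values are uncertain, and Hspa1a stayed under 3 FPKM in all libraries. Its difference of -1.03 was not called when any 1 of the L2d13 replicates or WT replicates 8, 10 and 12 was left out (-1.09 to -0.88). Hspa1b (-3.10), Hspa1a (-1.18), Rbm3 (0.72) and Cirbp (0.96) kept their direction without WT 9 to 12 and were not called there.

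Transcription factors and matrix genes held a few further calls. Nr2f2, an orphan nuclear receptor, was 2.65 to 6.22 FPKM in WT and 6.13 to 9.83 in L2d13 (log2 difference 0.81, adjusted p = 0.0045), and was not called without WT 9 to 12 (0.83). In all, 4 of 24 nuclear receptors and metabolic factors were higher and 3 lower, where 10.3% and 2.97% of all tested genes were. With median-of-ratios scaling these were 2 and 5, with quantile normalization 2 and 3, and without WT 9 to 12 they were 0 and 1. Of 28 genes of the matrix and of collagen crosslinking, 1 was higher and 2 lower, and the higher one was Loxl2 itself. P4ha1, a prolyl hydroxylase of collagen, was 3.18, 4.18 and 6.04 FPKM in WT and 1.07, 1.66 and 1.89 in L2d13 (-1.02, adjusted p = 0.00558). Col27a1, a fibrillar collagen, was 10.36, 15.71 and 24.4 FPKM in WT and 2.51, 3.31 and 8.73 in L2d13 (-1.79, adjusted p = 0.00691). Neither overlapped between the groups, and without WT 9 to 12 they were at -1.26 and -1.25 and were not called.

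Several lists showed little. None of 64 cytosolic ribosome genes (0) and 1 of 55 nuclear respiratory chain genes was called, with medians of -0.098 and -0.193, both below the median of all genes. Of 32 genes that are higher in male livers, 3 were lower, against 2.97% of all tested genes. Their median was -0.339, and 0.041 without WT 9 to 12. In set 2, 14 of the 32 were lower, with a median of -0.905. The 3 included Mup21 (-1.39) and Mup3 (-0.55). Mup3 lost its call without L2d13 replicate 8 (-0.52) or WT replicate 10 (-0.52) or 11 (-0.53). It also lost it with quantile normalization (-0.29), where 1 gene of the list was lower. Neither Mup21 nor Mup3 was called without WT 9 to 12 (-1.14 and -0.43). Mup genes are near-identical copies, so their separate values are uncertain. Markers of sinusoidal endothelium had 0 of 14 called (median 0.24), with sums of 66.19, 95.16 and 141.67 FPKM in L2d13 and 47.53, 72.07 and 144.84 in WT. Stellate cell markers had 0 of 13 called and sums of 111.39 to 168.58 in L2d13 and 120.4 to 171.99 in WT. Skeletal muscle markers summed to at most 1.33 FPKM and those of exocrine pancreas to at most 8.51, in L2d13 and WT libraries respectively.

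**Figure D5:**
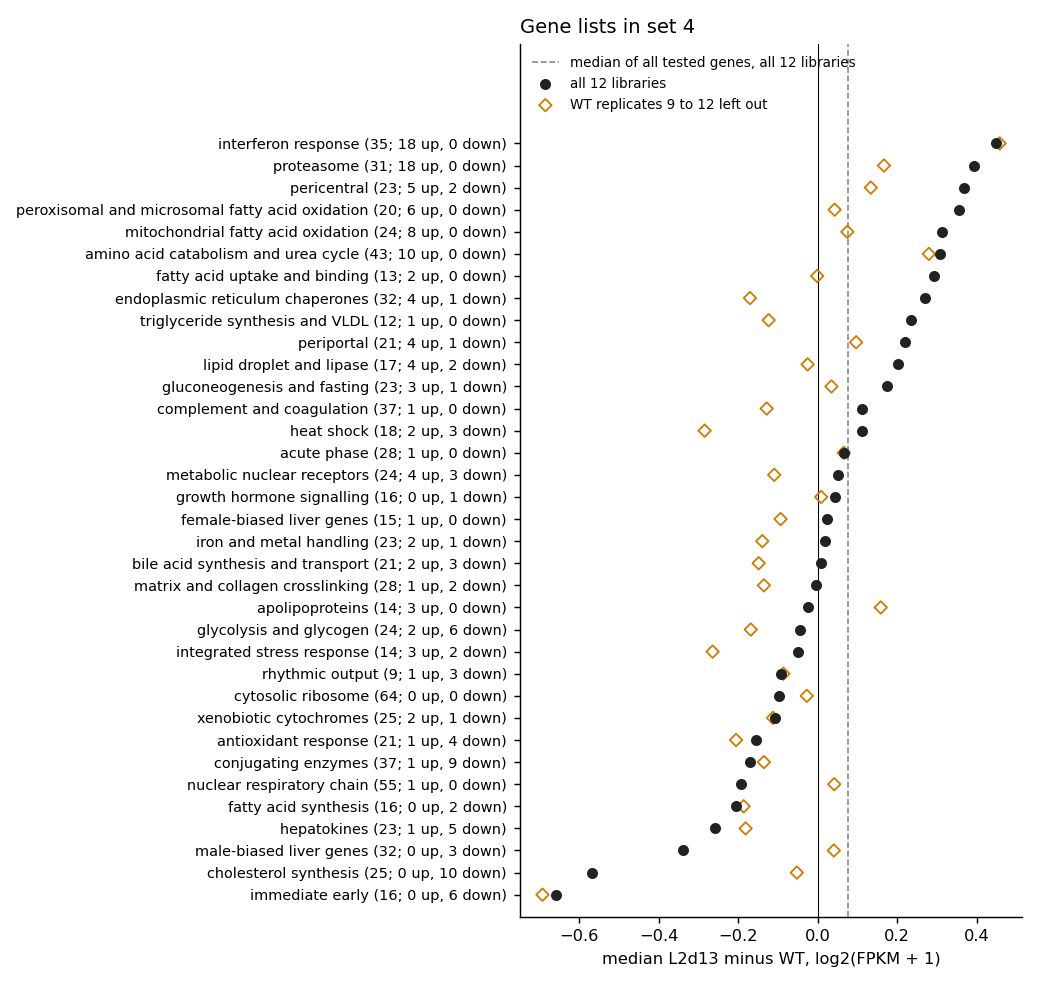
Median log2(FPKM + 1) difference of L2d13 minus WT over the tested members of each gene list with at least 8 of them, over all 12 libraries (black) and without WT replicates 9 to 12 (orange); brackets give the members tested and those called higher and lower, and the dashed line is the median of all tested genes (0.078). The cholesterol list moves from -0.568 to -0.052 without these libraries, and the interferon and immediate early lists stay near 0.45 and -0.66.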

How the data were processed

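FPKM values for 18171 genes were used as deposited by the authors. Per the submitters' processing notes, HISAT, Bowtie2 and RSEM were used with the build GRCm38.p5. Their versions and the normalization beyond FPKM are not given in the sources used here. Of the gene identifiers, 18040 matched a RefSeq symbol, and columns of no sample numbered 0. The FPKM that 1 fragment is worth was estimated from the steps between values of 165 low genes.

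Genes that reached an FPKM of 1 in 6 or more of the 24 libraries (10532) were fitted as log2(FPKM + 1) with limma 3.58.1 in R 4.3.3, 1 mean per genotype and set, and a variance trend. A pseudocount of 1 understates changes of low genes. Tests were two-sided, and Benjamini-Hochberg adjusted p under 0.05 were called. Single values were tested by exact permutation. The procedure was tested on simulated data. Tables and plots came from Python 3.11.15 and matplotlib 3.10.9.

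The members and lists were chosen with earlier results of these data known. Named are the 12 largest rises and falls among called genes whose higher genotype averaged an FPKM of 1 or more, predicted genes passed over, all clock genes, and up to 4 called members of each list described. For the difference between the sets, they are the 5 largest of each sign. Lists that are plotted but not described in words have no named members, which was decided with the values in view. Alternatives were other scalings, pseudocount, filters, libraries and variance models. Xist was not analysed here, and a few members are counted but not reported here.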

Additional observations from a re-analysis of the deposited data

Results flagged for a closer look

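The highest or lowest of the 6 WT libraries of set 4 stood apart from the rest for 5 named genes, out of 100 groups examined, and chance gives about 1 in 20. The gap to the nearest library, as a share of the WT range and both on the log2(FPKM + 1) scale, is given for each. Sphk2 was lowest in WT replicate 11 at 9.58 FPKM (0.712). Tsku was highest in WT replicate 8 at 116.97 FPKM (0.743). Npas2 was highest in WT replicate 9 at 2.9 FPKM (0.637). Por was lowest in WT replicate 12 at 96.71 FPKM (0.658), where Fbxl21 was highest at 1.31 (0.7).

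For 5 clock genes the difference of L2d13 from WT was not the same in set 4 and set 2 by limma's test of the difference. Values of 4 of them are given here. The value of set 4 minus that of set 2 was 3.11 for Nr1d1, 1.56 for Nr1d2, -0.99 for Cry1 and -1.83 for Nfil3 on the log2 scale. WT levels of Nr1d1 averaged 2.73 FPKM in set 4 and 8.20 in set 2. The part of the hour of collection in these values was not tested.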

How the results depend on the processing

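Depth is unknown, so counting error could not be separated from other spread. Higher genes numbered 632 with median-of-ratios scaling, 705 with quantile normalization, 63 without WT replicates 9 to 12, 99 with both that scaling and that omission (chosen after seeing the data) and 3518 with array weights. Lower genes numbered 640, 544, 84, 87 and 1771 under these, and 606 with only set 4 libraries, where 1232 were higher. Leaving out 1 library gave 574 (WT replicate 11) to 2016 (WT replicate 8) higher genes; the other libraries whose omission moved that count by more than a factor of 1.5 were WT replicates 9 (624) and 10 (699) and L2d13 replicates 8 (723) and 9 (685). The cause was not tested. Without a filter, 6 genes differed between the sets.

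Of 112 named called genes, 107 stayed called with median-of-ratios scaling, 110 with quantile normalization, 94 with library class as a term, 91 in each omission of 1 library and 35 without WT replicates 9 to 12. Thrsp alone changed sign among them, without WT replicates 9 to 12 (0.16; 0.21 with median-of-ratios scaling too). Other changes of sign were in genes not called. Without WT replicates 9 to 12, Ciart was 0.24, Clock -0.32, Csnk1d -0.16, Csnk1e -0.02, Manf -0.11 and Sdf2l1 -0.36. With median-of-ratios scaling as well, Ciart was 0.28, Clock -0.27, Csnk1d -0.10, Manf -0.05 and Sdf2l1 -0.31. Median-of-ratios scaling alone gave Csnk1d -0.01, Csnk1e -0.07, Manf -0.06 and Sdf2l1 -0.08, and quantile normalization Csnk1e -0.08 and Sdf2l1 -0.03. Library class gave Ciart 0.06, Clock -0.02, Manf -0.06, Sdf2l1 -0.12 and Timeless 0.11, and array weights Csnk1e -0.08 and Hlf 0.01. Hlf was 0.09 with each library rescaled to 1 sum and 0.00 with that sum taken without Mup genes. Omitting 1 library gave Csnk1e -0.07 to 0.08, Manf -0.08 to 0.20, Sdf2l1 -0.09 to 0.19, Hlf -0.09 to 0.06 and Ciart -0.27 to 0.14.

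Shared replicate numbers did not pair the libraries, as same-numbered libraries correlated between -0.418 and 0.26 and only replicate 8 matched its own number best. With the replicate block, 899 genes were higher and 464 lower.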
